A study of Drosophila melanogaster with 6 samples.

Results

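The proteasome genes of the fly were followed in cultured S2 cells labelled as a knockout (KO) of the RNA-tailing enzyme Tailor (CG1091) and in wild-type S2 cells. Members were all genes whose listed name begins with Prosalpha, Prosbeta, Rpn, Rpt or Pros and a digit, which gave 41 of 14210 listed genes. Of these, 13 encode subunits of the core particle, 15 encode subunits of the regulatory particle (8 in its base and 7 in its lid), and 13 are testis-type copies. S2 is a line of Drosophila melanogaster cells that was set up from embryos and has features of hemocytes, the fly's blood cells. Polyadenylated RNA was sequenced from 3 libraries of CG1091 KO cells, stably depleted of Tailor with CRISPR/Cas9, and from 3 libraries of wild-type (WT) cells. Both groups are the same cell line and no other treatment is labelled. The sources used here do not say whether the KO cells descend from 1 clone or whether libraries of a group came from separate cultures. All p-values therefore rest on the spread among these 6 libraries, which may be technical in part or in whole.

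The proteasome is the large protease that degrades proteins marked with ubiquitin. Its core particle is a barrel of alpha rings, which gate the entrance, and beta rings, which hold the proteolytic sites. The regulatory particle caps the barrel. Its base holds a ring of Rpt ATPases that unfold the substrate and Rpn subunits that bind ubiquitin and shuttle proteins, and its lid holds Rpn11, which removes the ubiquitin chain, in a scaffold of other Rpn proteins. Each constitutive subunit is needed in fixed proportion to the others in the assembled particle. Flies also carry second genes for several subunits, and these copies are known for expression in the male germ line.

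Levels are in FPKM, in which a gene's fragments are divided by its transcript length and by the size of the library, so that genes can be compared with each other. Libraries held 18411809 to 22536308 recovered fragments in KO and 20896005 to 22957816 in WT, and FPKM summed to 621110 to 656344 in KO libraries and 665278 to 677330 in WT libraries. CG1091 itself averaged 24.8 ± 2.17 FPKM in KO cells and 49.9 ± 1.94 FPKM in WT cells (SD, n = 3 each), so its mRNA was lower and not absent under the KO label. Of 9 listed hemocyte markers, 7 had a mean of at least 1 FPKM. The highest were the collagen genes Cg25C and vkg and the scavenger receptor gene crq, while lz was near 0. Hml, also under that mean, had 1.348 to 1.652 FPKM in KO libraries and 0.379 to 0.417 FPKM in WT libraries. Pxn averaged 1.471 FPKM in KO cells and 3.12 FPKM in WT cells. He averaged 1.554 FPKM in KO cells and 0.584 FPKM in WT cells. Of 16 male germ line markers, 14 had a mean under 1 FPKM, and the summed level of that list was 9.31 to 9.53 FPKM in KO libraries and 8.63 to 9.71 FPKM in WT libraries.

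Proteasome genes were abundant in both groups, and a smaller share of them was called than of all genes tested. Of the 28 core and regulatory members, 27 passed the filter of a mean of at least 1 FPKM, and these stood between the 77.2 and 95.7 percentile of level among the 7259 genes tested. With limma on log2(FPKM + 1) and Benjamini-Hochberg adjustment over all 7259 genes at a threshold of 0.05, 4 of the 27 rose in KO cells, 5 fell and 18 did not pass. Those 9 called genes are 33.3% of the 27, where 62.1% of all genes tested were called, 30.1% higher and 32.1% lower. The KO and WT ranges did not overlap in 12 of the 27, against 67.3% of all genes tested. In 5 of the 12 KO lay above WT, as it did in 32.9% of all genes tested, and in 7 it lay below, as in 34.5%. None of the 27 was called at a change of at least 1.5-fold, which 12.6% of all genes tested were, and 3 (Rpn2, Rpn9 and Pros25) were called at 1.25-fold or more, against 33.9%. For the 18 that did not pass, the 95% confidence intervals of the log2 change reached at most -0.24 (Pros26) and 0.19 (Pros28.1). On recovered fragments, limma-voom called 4 of the 27 higher and 4 lower, against 62.0% of all genes called, 31.9% higher and 30.1% lower. The authors' deposited table had 3 of the 28 higher and 3 lower, against 36.0% of its 11643 genes called, 17.7% higher and 18.3% lower. The median log2 change in limma was -0.05 over the core members and -0.03 over the regulatory members, with -0.01 over all genes tested.

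**Figure D1:**
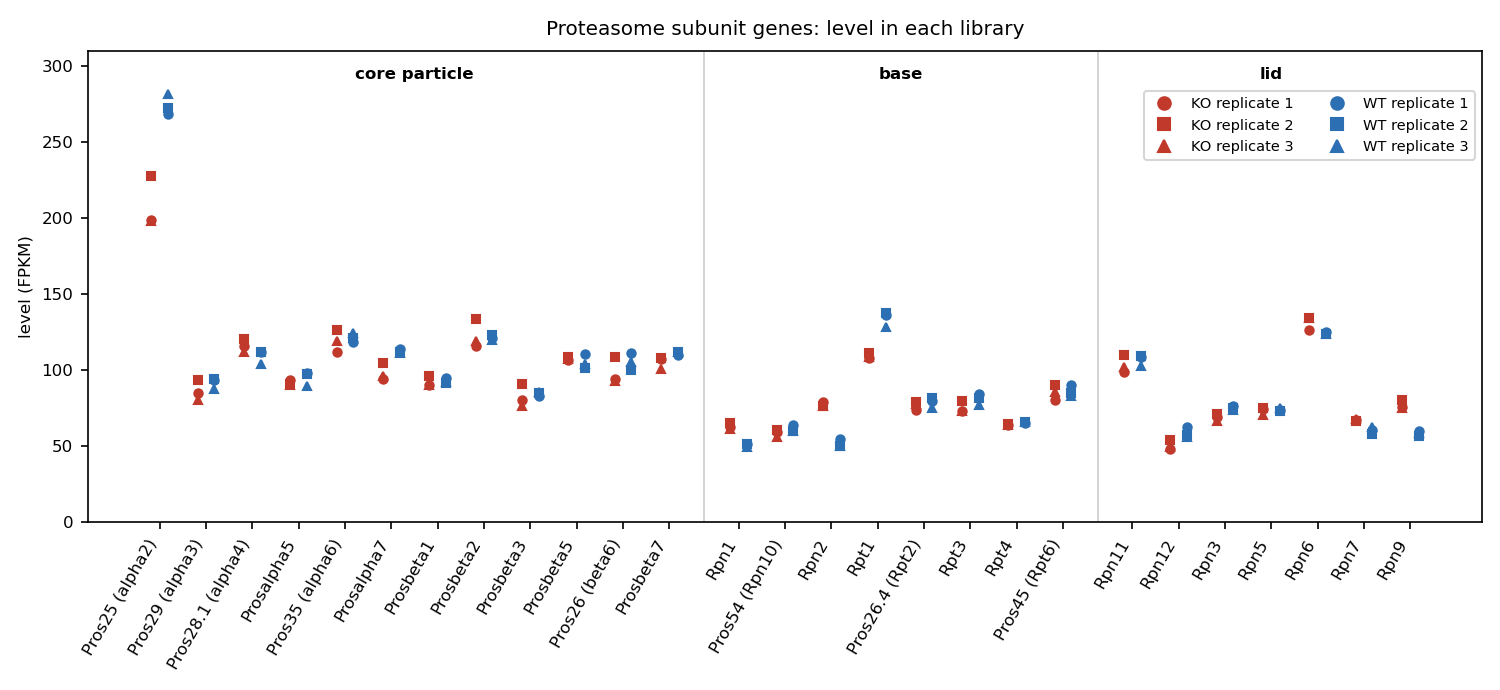
Level in FPKM (linear axis from 0) of the 27 tested core and regulatory members in each of the 6 libraries, KO points left of WT points for each gene and 1 symbol shape per replicate number. Pros25 stands above all others in both groups, and the KO and WT ranges overlap in 15 of the 27 genes.

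In the core particle 2 of 6 tested alpha genes passed, both lower in KO cells, and 0 of 6 beta genes did. Of all genes tested, 62.1% passed, 30.1% higher and 32.1% lower. The difference between the rings was not tested, and beta genes were called in 2 alternatives given with the exon lengths and with KO replicate 2. Pros25 encodes alpha2 and had the highest level of all members (chromosome 3R, from 8257046 to 8258279 in the coordinates of the deposited tables, with no build named in the sources used here). It stood at 199.0, 228.1 and 197.9 FPKM in KO libraries, against 268.4, 272.3 and 282.1 FPKM in WT libraries. All KO libraries lay below all WT libraries, and the gene fell by 0.40 on the log2 scale (SE 0.054, limma adjusted p = 7.73e-05). In both groups it remained far above the other core genes. Prosalpha7, the alpha7 gene, had 93.9, 104.6 and 96.3 FPKM in KO libraries, against 113.7, 111.8 and 111.5 FPKM in WT libraries. Its groups did not overlap either, and it fell by 0.19 (SE 0.045, limma adjusted p = 0.00342).

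The other alpha genes did not pass. Pros28.1, the alpha4 gene and the core member with the highest log2 change, had 116.2, 120.4 and 111.9 FPKM in KO libraries, against 112.1, 112.2 and 103.9 FPKM in WT libraries. These ranges overlap by a narrow margin, and the log2 change was 0.09 (95% interval -0.01 to 0.19). Pros29 (alpha3), Prosalpha5 and Pros35 (alpha6) had log2 changes of -0.09, -0.05 and -0.03. Their means were 86.3, 91.6 and 119.1 FPKM in KO cells, against 91.9, 95.1 and 121.6 FPKM in WT cells.

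Prosalpha1, the alpha1 gene, was listed at or near 0 in every library, at 0.00, 0.310 and 0.109 FPKM in KO libraries and 0.00, 0.144 and 0.0880 FPKM in WT libraries. CG30382, which the reference names Prosalpha1R, a second alpha1 gene outside the rule, was listed at 0 in all 6 libraries. The other alpha genes all exceeded 80 FPKM in every library, so the listed value says little about alpha1 mRNA. The sources used here do not say how reads shared by closely related copies were counted, and no comparison is made for this gene.

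The 3 genes of the proteolytic beta subunits did not pass. With each library's trend on exon length removed they were called higher, Prosbeta1 by 0.12, Prosbeta2 by 0.10 and Prosbeta5 by 0.11 (limma adjusted p = 0.00983, 0.0449 and 0.0303). Prosbeta1, whose product cuts after acidic residues, had 90.5, 96.0 and 90.5 FPKM in KO libraries, against 94.6, 91.8 and 92.2 FPKM in WT libraries. Prosbeta2, whose product cuts after basic residues, had 115.7, 134.0 and 119.3 FPKM in KO libraries, against 121.4, 123.1 and 119.6 FPKM in WT libraries. Prosbeta5, whose product cuts after hydrophobic residues, had 106.4, 109.0 and 107.2 FPKM in KO libraries, against 110.4, 101.5 and 104.2 FPKM in WT libraries. The groups overlapped in all 3 genes, and the log2 changes were -0.01 (95% interval -0.10 to 0.08), 0.02 (-0.10 to 0.13) and 0.03 (-0.06 to 0.12). The other beta genes, Prosbeta3, Pros26 (beta6) and Prosbeta7, had log2 changes of -0.04, -0.10 and -0.08 and did not pass. Prosbeta7 was the 1 beta gene whose KO range (100.5 to 108.0 FPKM) lay wholly below its WT range (109.7 to 112.1 FPKM).

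**Figure D2:**
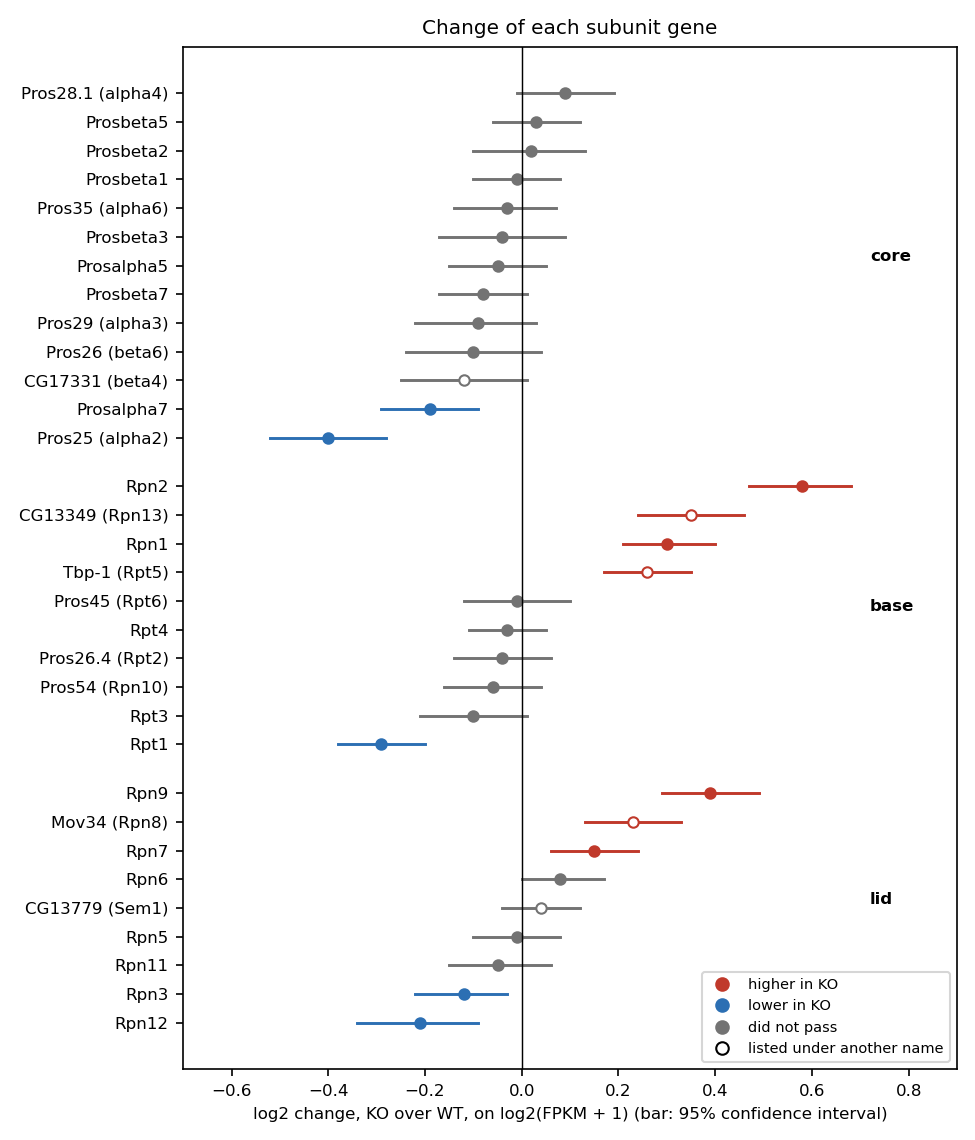
Log2 change, KO over WT on log2(FPKM + 1), of each tested subunit gene with its 95% confidence interval, by particle and in descending order. Filled points are members, open points are subunits that the files list under other names. The core has no red point, and the base and lid have red and blue points on both sides of 0.

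In the base, changes ran in both directions, with Rpn2 the most changed. Rpn2, which together with Rpn1 forms the base's scaffold, lies on chromosome 3R from 24979184 to 24982981. It had 79.0, 76.6 and 76.6 FPKM in KO libraries, against 54.7, 50.4 and 49.8 FPKM in WT libraries. This was the largest change of any member, a rise of 0.58 on the log2 scale, or 1.49-fold (SE 0.046, limma adjusted p = 1.47e-06). Rpn1, which docks ubiquitin shuttle proteins, had 62.6, 65.2 and 61.2 FPKM in KO libraries, against 51.3, 51.6 and 49.7 FPKM in WT libraries. It rose by 0.30 (SE 0.042, limma adjusted p = 0.000103), with no overlap between the groups. Pros54, which encodes the ubiquitin receptor Rpn10, did not pass (log2 change -0.06) and averaged 58.8 ± 2.38 FPKM in KO cells and 61.3 ± 2.22 FPKM in WT cells (SD, n = 3 each).

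Of the 5 ATPase genes in the rule, 1 fell and 4 did not pass, where 32.1% of all genes tested fell. Rpt1 (2R, 3539944 to 3541453) had 108.0, 111.6 and 108.5 FPKM in KO libraries, against 136.4, 137.5 and 128.5 FPKM in WT libraries. It fell by 0.29 (SE 0.040, limma adjusted p = 8.7e-05), with no overlap. The whole span of Rpt1 lies within that of CG17985, annotated on the same strand, which had a mean of 17.4 FPKM and a log2 change of -0.22. The sources used here do not say how reads of the pair were divided, so both values are uncertain. Pros26.4 (Rpt2), Rpt3, Rpt4 and Pros45 (Rpt6) had log2 changes of -0.04, -0.10, -0.03 and -0.01. Rpt4 was the most even of them, at 64.1, 64.7 and 63.7 FPKM in KO libraries and 65.0, 65.6 and 65.8 FPKM in WT libraries, ranges that did not overlap.

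The lid had 2 higher and 2 lower genes among its 7, and 3 that did not pass. Over all genes tested, 30.1% were higher and 32.1% lower. Rpn9, a scaffold subunit (3R, 19557224 to 19559184), had 75.5, 80.3 and 75.0 FPKM in KO libraries, against 60.1, 56.6 and 58.9 FPKM in WT libraries. It rose by 0.39 (SE 0.044, limma adjusted p = 2.28e-05), and every KO library lay above every WT library. Rpn12, another scaffold subunit (3L, 16576082 to 16577122), had 48.4, 54.1 and 49.3 FPKM in KO libraries, against 62.8, 57.4 and 56.2 FPKM in WT libraries. It fell by 0.21 (SE 0.057, limma adjusted p = 0.00702), again with no overlap. Rpn7 rose by 0.15 (limma adjusted p = 0.00919) and Rpn3 fell by 0.12 (limma adjusted p = 0.0245), both with no overlap. In the authors' deposited table Rpn12 and Rpn7 did not pass (adjusted p = 0.0557 and 0.119). The call of Rpn3 was lost in 7 alternatives. Among them its limma adjusted p was 0.0577 without KO replicate 1, 0.114 without KO replicate 3, 0.0681 without WT replicate 1 and 0.0655 without WT replicate 2.

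Rpn11, the deubiquitinase of the lid, did not pass, and its groups overlapped. It had 98.9, 109.8 and 101.9 FPKM in KO libraries, against 108.5, 109.6 and 102.5 FPKM in WT libraries. Rpn5 and Rpn6, both scaffold subunits, had log2 changes of -0.01 and 0.08 and did not pass. Rpn6 had the highest level of the lid genes in the rule at 126.6 to 134.5 FPKM in KO libraries and 124.0 to 125.0 FPKM in WT libraries, without overlap. It was called higher under quantile normalization (adjusted p = 0.0245), with the length trend removed (adjusted p = 0.00711) and without KO replicate 1 (adjusted p = 0.048, all limma). The overlapping gene ave, on the other strand, shares 386 bases of the span of Rpn6 and fell by 0.26. No source used here states that reads were counted by strand, so reads of such pairs may be mixed.

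The rule does not reach 5 further tested subunits, which are listed under other names, and 3 of the 5 rose. Tbp-1, the Rpt5 ATPase gene, averaged 71.6 ± 1.17 FPKM in KO cells and 59.5 ± 1.71 FPKM in WT cells (log2 change 0.26, limma adjusted p = 0.000216). CG13349, named Rpn13 in the reference, a ubiquitin receptor held by Rpn2, averaged 57.5 ± 3.29 FPKM in KO cells and 44.8 ± 1.35 FPKM in WT cells (log2 change 0.35, limma adjusted p = 0.000116). Mov34, the Rpn8 gene and partner of Rpn11 in the lid, averaged 82.4 ± 1.38 FPKM in KO cells and 70.3 ± 3.21 FPKM in WT cells (log2 change 0.23, limma adjusted p = 0.000946; SD, n = 3 each). The beta4 gene CG17331 and CG13779, the gene of the small lid subunit Sem1, did not pass, with log2 changes of -0.12 and 0.04. Over all genes tested, 62.1% were called, 30.1% higher and 32.1% lower. With the 5 subunits added, the regulatory particle had 7 of 19 genes higher and 3 lower (52.6% called). The core then had 0 of 13 higher and 2 lower (15.4% called). For that count of 0, limma-voom on recovered fragments and the authors' deposited table also called 0 of the core members in the rule higher, and in limma 0 were higher at an unadjusted p under 0.05. Quantile normalization called 1 of them higher (Pros28.1, adjusted p = 0.0352), and removal of the length trend called 4.

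Summed over its 13 members, the core particle stood at 1294, 1411 and 1283 FPKM in KO libraries, against 1436, 1423 and 1418 FPKM in WT libraries. All KO libraries lay below all WT libraries, KO replicate 2 by a narrow margin and the other KO libraries by more. The regulatory sum overlapped between the groups, at 1160, 1220 and 1168 FPKM in KO libraries and 1193, 1168 and 1141 FPKM in WT libraries. The ratio of the sums was 1.116, 1.157 and 1.098 in KO libraries, against 1.204, 1.219 and 1.243 in WT libraries, a log2 difference of -0.12 with no overlap. Without the highest member of each particle, Pros25 and Rpn6, the difference was -0.05. With the subunits listed under other names added, the ratio was 0.883, 0.932 and 0.877 in KO libraries. In WT libraries it was then 0.982, 0.996 and 1.022, again without overlap. Which sum is larger therefore depends on the genes counted, and alpha1 was listed at or near 0. Relative to the whole library, the 28 genes took 0.395%, 0.401% and 0.394% of summed FPKM in KO libraries and 0.388%, 0.383% and 0.385% in WT libraries. That share was higher in every KO library, while the summed FPKM of the 28 genes overlapped between the groups. The log2 difference was 0.04 for the share and -0.05 for the summed FPKM, so its direction depends on the scaling. The core and regulatory sums above are not scaled to the library's summed FPKM, which was lower in every KO library. Whether their group differences hold under that scaling was not tested. The ratio of the sums is the same under either scaling.

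**Figure D3:**
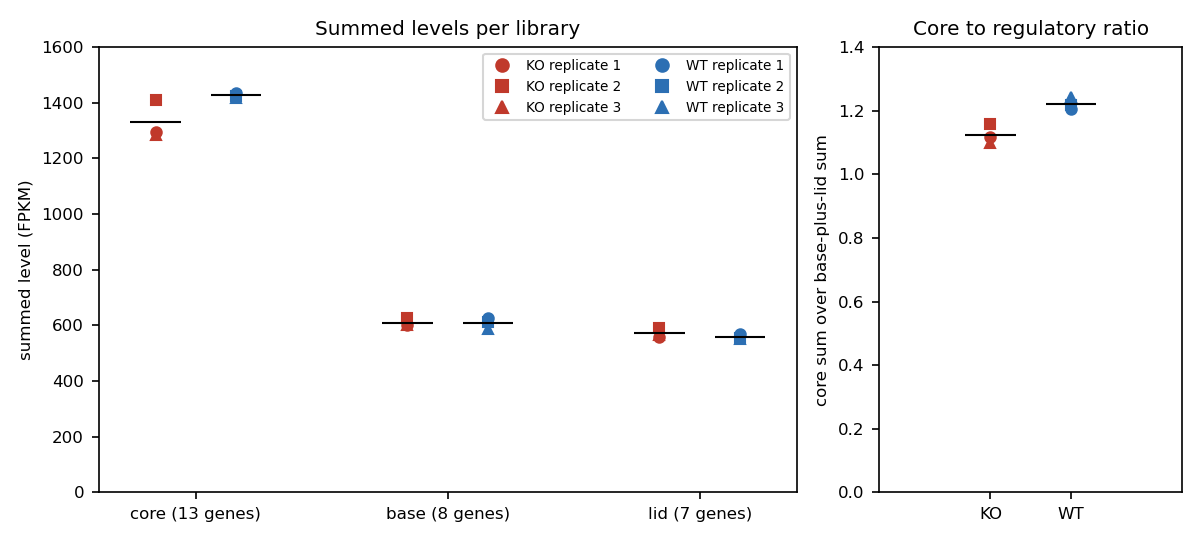
Left, summed level in FPKM of the core, base and lid members in each library, with a black line at each group's mean; right, the core sum divided by the base-plus-lid sum. Core sums in all KO libraries lie below those of all WT libraries (1418 to 1436), KO replicate 2 (1411) by a narrow margin. The ratio is lower in all KO libraries.

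KO replicate 2 moved with the core values. It was the highest KO library for 11 of the 12 tested core members and 12 of the 15 regulatory members, against 42.4% of all genes tested. It was also the deepest KO library, with 22536308 recovered fragments. Left out, 5 core genes were called lower in place of 2, the added ones being Pros29, Pros26 and Prosbeta3 (limma adjusted p = 0.0203, 0.0119 and 0.0405). Rpt3 of the base was also called lower without this library (limma adjusted p = 0.0225) and without WT replicate 3 (limma adjusted p = 0.0492). The part of this library in the core result was not otherwise tested.

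Exon length also moved with these changes. Core genes are short, at 852 to 1215 nt of exons, base genes have 1404 to 3412 nt and lid genes 995 to 1945 nt. Over the 27 members, the log2 change and the log2 exon length had a Pearson r of 0.65 and a Spearman rho of 0.41. Without Rpn1 and Rpn2, the longest members, these were 0.34 and 0.26 over 25 genes. The genes share the same 6 libraries and are not independent replicates. Over the 6911 tested genes with a length, r was 0.14 and rho 0.23, and the 691 genes between 860 and 1158 nt, which include 9 core members, had a median log2 change of -0.10. With each library's trend on length removed, 6 core members were called in place of 2. The 4 added, Pros28.1, Prosbeta1, Prosbeta2 and Prosbeta5, were all higher in KO, and Pros25 and Prosalpha7 were still lower.

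**Figure D4:**
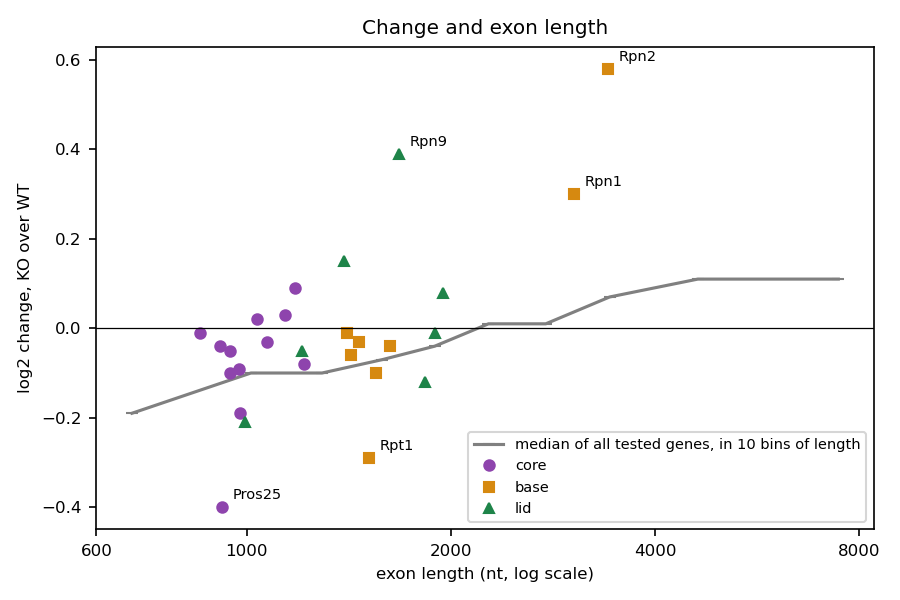
Log2 change, KO over WT, against exon length in nt (log axis) for the core, base and lid members, with the grey line at the median of all tested genes in each of 10 bins of length. The core members lie between 852 and 1215 nt, and Rpn2 and Rpn1 lie at the long end above the line.

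Most testis-type copies were listed at or near 0 and Rpt6R was not. Of the 13 copies, 6 were listed at 0 in all 6 libraries, namely Pros28.1B, Prosalpha6T, Prosbeta4R1, Prosbeta4R2, Prosbeta5R and Rpn12R. A count of 0 allows up to 3 fragments in a library, for counting error only. Another 5, Prosalpha3T, Pros28.1A, Prosbeta2R1, Prosbeta2R2 and Rpt4R, never passed 0.125 FPKM or 2 fragments in a library. No difference between the groups was detectable for these 11 genes. As with Prosalpha1, the handling of reads shared with related genes is not known, so a listed 0 does not show that a copy was not expressed. The 2 that passed the filter, Rpt6R and Rpt3R, are copies of base ATPases.

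Rpt6R, the copy of the Rpt6 gene (3R, 26407919 to 26409419), had 24.3, 23.8 and 24.8 FPKM in KO libraries, against 28.6, 29.0 and 27.6 FPKM in WT libraries. All KO libraries were lower, and the gene fell by 0.22 (SE 0.047, limma adjusted p = 0.00217). It made up 93.9% to 96.4% of the summed level of the testis-type copies. Of the 16 male germ line markers, mia averaged 5.91 FPKM in KO cells and 5.94 FPKM in WT cells, twe averaged 2.13 FPKM in KO cells and 2.10 FPKM in WT cells, and the other 14 were under 1 FPKM, with nht, dj and Mst84Da listed at 0 in every library. Of 3 listed markers of gonad soma, zfh1 averaged 179.3 FPKM in KO cells and 191.5 FPKM in WT cells, fs(1)Yb averaged 4.98 FPKM in KO cells and 3.42 FPKM in WT cells, and tj was listed at 0. Their part in the level of Rpt6R was not tested. Its general counterpart Pros45 had 80.7, 90.3 and 85.8 FPKM in KO libraries, against 90.3, 84.9 and 83.0 FPKM in WT libraries, with overlap. The ratio of Rpt6R to Pros45 was 0.302, 0.264 and 0.290 in KO libraries, against 0.317, 0.342 and 0.333 in WT libraries (exact two-sided permutation p = 0.1, the smallest that 3 against 3 libraries allow).

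Rpt3R, the copy of Rpt3 (3R, 5580454 to 5581921), was far lower. It had 1.150, 1.255 and 1.365 FPKM in KO libraries, against 1.121, 1.105 and 1.002 FPKM in WT libraries, from 32 to 43 fragments per library. The ranges lay close together without overlap, and the log2 change of 0.12 did not pass (limma adjusted p = 0.338). Its ratio to Rpt3 was 0.0157, 0.0157 and 0.0187 in KO libraries, against 0.0133, 0.0136 and 0.0130 in WT libraries (exact two-sided permutation p = 0.1). Adjusted over these 2 ratios the p-values are 0.1 as well.

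**Figure D5:**
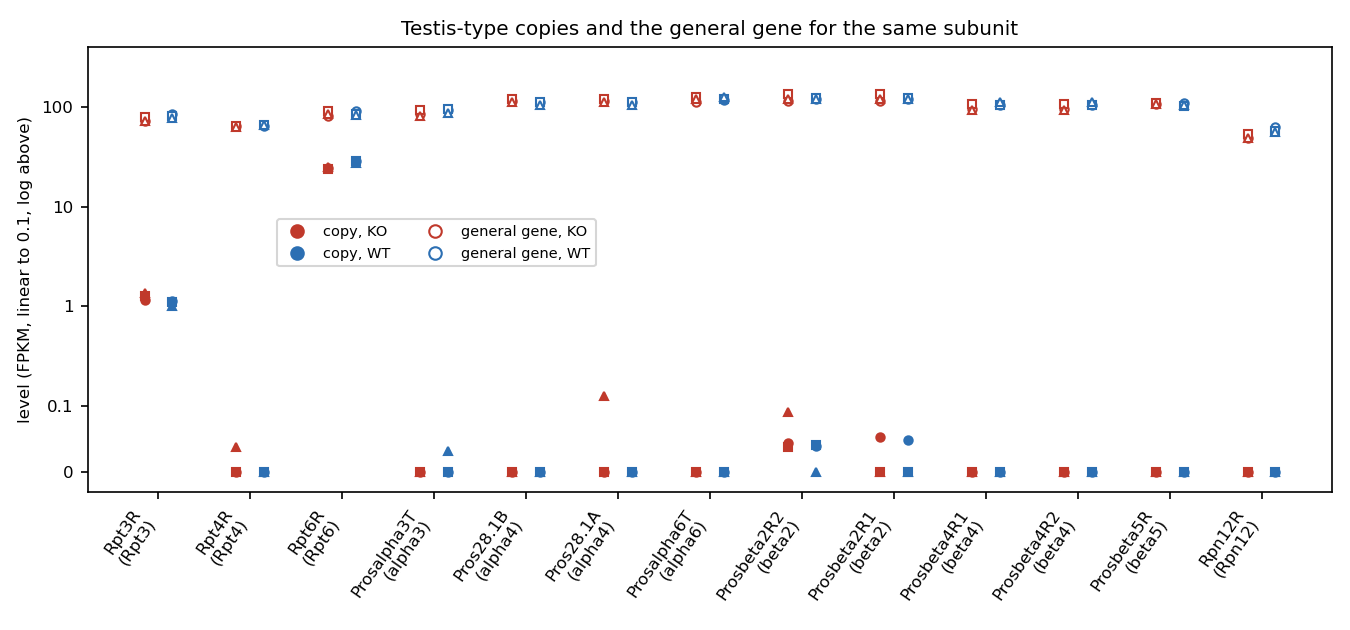
Level in FPKM (linear up to 0.1, log above) of the 13 testis-type copies, filled, and of the general gene for the same subunit, open, in KO libraries (red, left) and WT libraries (blue, right). Rpt6R lies between 23.8 and 29.0, Rpt3R between 1.002 and 1.365, and the other copies at or near 0, while the general genes shown lie between 48.4 and 134.0 FPKM.

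Genes around the proteasome were read from lists that can be set against the 62.1% called over all genes, 30.1% higher and 32.1% lower. The shuttle factors and the Nrf pathway had 5 of 8 genes higher, 0 lower and 3 that did not pass, with a median log2 change of 0.21. The share of this list called in either direction, 62.5%, is near that over all genes. In this list 0 genes were lower in limma at an unadjusted p under 0.05. Ubqn, a shuttle that carries ubiquitylated proteins to Rpn1 and Rpn10, had 94.3, 88.9 and 87.9 FPKM in KO libraries, against 52.8, 62.3 and 57.9 FPKM in WT libraries, and rose by 0.64 (limma adjusted p = 4.17e-06). The shuttle gene Rad23 rose by 0.27 and Pngl, which removes sugars from proteins leaving the endoplasmic reticulum, by 0.25. The gene cnc encodes the fly Nrf factor, known as an activator of proteasome genes. It had 37.4, 32.6 and 35.5 FPKM in KO libraries, against 26.1, 30.3 and 29.1 FPKM in WT libraries, and rose by 0.30 (SE 0.066, limma adjusted p = 0.00257).

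The list of proteasome assembly, activators and inhibitors had 1 of 7 genes higher, 3 lower and 3 that did not pass, with a median of -0.11. Those called are 57.1% of the list, against 62.1% of all genes tested, 30.1% higher and 32.1% lower. Of the 3 lower, REG, a proteasome activator (limma adjusted p = 0.0349), lost its call in 11 alternatives, the authors' deposited table among them (adjusted p = 0.0943). Uch-L3, named Uch-L5 in the reference, a deubiquitinase that docks on Rpn13, had 70.1, 69.0 and 73.7 FPKM in KO libraries, against 98.1, 92.7 and 90.3 FPKM in WT libraries. It fell by 0.40 (limma adjusted p = 2.28e-05), while the gene of its dock, CG13349, was among those that rose. PI31, a proteasome regulator, rose by 0.27, and CG2046, named PSMG1 in the reference and encoding an assembly chaperone, fell by 0.24. Among p97 and its cofactors, which extract ubiquitylated proteins from complexes and membranes, 2 of 4 were higher and 0 lower. TER94, the p97 gene itself, rose by 0.14 (limma adjusted p = 0.00482) but did not pass in the authors' deposited table (adjusted p = 0.0841), and its cofactor p47 rose by 0.31 (limma adjusted p = 0.000175). For this list too, 0 genes were lower in limma at an unadjusted p under 0.05.

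The 5 genes of the ubiquitin and E1 list were called, 3 higher and 2 lower, and 3 of these calls held in every alternative run. Of all genes tested, 62.1% were called, 30.1% higher and 32.1% lower. Ubi-p5E (limma adjusted p = 0.0456) lost its call in 10 alternatives and RpL40 (limma adjusted p = 0.023) in 7, and under quantile normalization RpL40 stood at 0.01 (adjusted p = 0.759). Ubi-p63E, a polyubiquitin gene, had 86.2, 74.1 and 85.9 FPKM in KO libraries, against 58.5, 58.0 and 56.3 FPKM in WT libraries, and rose by 0.50 (limma adjusted p = 2.36e-05). How reads shared among the ubiquitin genes were counted is not known, so the levels and changes of these genes are uncertain. Uba1, the activating enzyme, rose by 0.28. RpS27A, which encodes ubiquitin fused to a ribosomal protein, fell by 0.34. Its log2 change was -0.07 under quantile normalization (limma adjusted p = 0.0319) and -0.19 with the length trend removed. The 12 tested ubiquitin-conjugating enzymes had 3 genes higher, 3 lower and 6 that did not pass, with a median of 0.00. Of the 3 lower, vih lost its call without KO replicate 1 or WT replicate 3 (limma adjusted p = 0.0754 and 0.0794). With the length trend removed, 5 conjugating enzymes were called higher and 1 lower. UbcD6, CG7656 and crl had log2 changes of -0.21, 0.20 and -0.22, each with a limma adjusted p under that of Rpn12.

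In the list of ligases and receptors of protein quality control, 4 of 7 were higher, 0 lower and 3 did not pass. Those called are 57.1% of the list, against 62.1% of all genes tested, 30.1% higher and 32.1% lower. The genes ref(2)P and stv of this list changed by more than any proteasome member. The autophagy receptor gene ref(2)P, the fly p62, had 282.7, 309.0 and 290.3 FPKM in KO libraries, against 98.0, 97.7 and 105.8 FPKM in WT libraries. It rose by 1.54 (SE 0.046, limma adjusted p = 4.45e-10). CHIP, a ligase that works with Hsp70, rose by 0.39, and stv, its co-chaperone partner of the BAG family, by 3.79. The gene stv averaged 47.6 FPKM in KO cells and 2.52 FPKM in WT cells. Its log2 change was 4.32 in limma-voom on recovered fragments, 4.28 in the authors' deposited table and 2.81 with a pseudocount of 5. Here as well, 0 genes were lower in limma at an unadjusted p under 0.05. With the length trend removed, 4 genes of this list were called higher and 1 lower.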

How the data were processed

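Per the labels' protocols, RNA was Trizol-extracted, poly(A)-selected and made into directional libraries. The authors deposited 1 gene table of FPKM values with interval bounds per library, and, per the file headers, a DESeq-format comparison table. That deposited table holds mean normalised counts per group (a signal), their fold ratio, its log2 value, p-values and adjusted p-values. Its ratios are wild type over KO per the file headers, and their sign was turned here. DESeq 1.10.1, HTSeq 0.6.1p1, Cufflinks 1.3.0, TopHat 1.4.1 and BWA 0.6.1 stand in the submitters' processing notes, with no role and no genome build given. The 7259 genes whose mean reached 1 FPKM were tested with limma 3.58.1 in R 4.3.3 on log2(FPKM + 1), eBayes with trend and robust settings, and the script was tested on simulated data. Log2 changes on this scale understate those of low genes. Fragments were recovered from the interval bounds as (2 × FPKM / upper half-width) squared. Of values under 30 in genes with 1 transcript, 92.6% to 93.1% came within 0.02 of a whole number, and other values are effective numbers. Exon lengths (95.2% of tested genes) and the names called the reference's came from BDGP6 tables by gene ID. Members, lists and alternatives were chosen with earlier results of these data known. Per-library values are given for catalytic subunits, the highest and lowest change per particle, and testis-type copies of at least 1 FPKM; up to 3 called genes of each list, by smallest p, and cnc are named with a log2 change, some of them with per-library values. Per-library values of other members and of the proteasome regulators were added after their values were seen.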

Additional observations from a re-analysis of the deposited data

How the results depend on the processing

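The counts of called core, regulatory and testis-type genes (2, 7 and 1) stayed within 1.5 times under quantile normalization, median scaling, limma-voom on recovered fragments, eBayes without trend or robust settings, a filter at 5 FPKM or none, and a pseudocount of 0.1 or 5 (core 2 to 3, regulatory 6 to 8, testis-type 1). Leaving out 1 library gave 2 to 5 core genes, with 5 without KO replicate 2, and 6 to 8 regulatory genes. The replicate number as a block gave 2, 7 and 1. Deviations of same-numbered libraries correlated at -0.049, 0.003 and -0.032, so no shared deviation by replicate number was visible. Such values cannot show whether same-numbered libraries were prepared together. With the length trend removed there were 6 core genes, the medians were 0.05 for the core and 0.04 for the regulatory particle, and Prosbeta1 turned to 0.12 (adjusted p = 0.00983). The authors' deposited table called 4 regulatory genes, where 36.0% of its 11643 genes passed. It called 6 of the 9 members called in limma, in the same direction, and not Rpn3, Rpn12 and Rpn7. The log2 difference of the core to regulatory ratio was -0.05 without the highest member of each particle and -0.16 with subunits listed under other names, a choice made after seeing the data. Of 507 values for 30 named genes, 500 stayed on their side of the threshold, 2 lost a call (Rpn12 and TER94, both in the authors' deposited table), 4 gained one and 1 gained one with its sign changed (Prosbeta1). A further 7 values of 4 genes that were not called changed sign, to between -0.05 and 0.02 (Prosbeta1, Prosbeta2, Prosbeta5 and Rpt3R); except for the length trend, the cause was not tested. The median log2 change of all genes was -0.01 in the main fit, -0.02 under median scaling and -0.01 under quantile normalization. No fit was run on FPKM scaled to each library's sum. Together the 28 core and regulatory genes differed by -0.05 on the log2 scale in summed FPKM. As a share of each library's summed FPKM they differed by 0.04. Rpt3R had few fragments, and the copies at or near 0 had at most 2; in the tested core and regulatory genes the counting error was at most 3.3%.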
